A study of Mus musculus with 8 samples.

Results

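The 6 Gata genes and the 2 Zfpm genes were followed through mouse embryonic stem cells (ESCs) and cells derived from such lines that the labels name as like testicular somatic cells (SCLCs) or primordial germ cells (todPGCLCs). All 8 members were taken, out of 46078 gene IDs in the count tables. The family itself was chosen for study with earlier results of these data known. RNA sequencing of 8 libraries was available, 2 in each of 4 groups, all from male C57BL/6 cells. The tcESCs (XY;tesco-cfp) carry a CFP reporter driven by the testis enhancer core of Sox9 and received no other transgene. The tc;Sf1ESCs (XY;tesco-cfp;Sf1) are 1 clone of the tcESCs, selected with G418, that overexpresses Sf1, the product of Nr5a1, from a plasmid. The SCLCs were CFP-positive cells sorted at day 12 from differentiated tc;Sf1ESCs, so that they carry the reporter and the Sf1 transgene too. The todPGCLCs (XY;Prdm1-gfp) were reporter-positive cells sorted at day 6 from organoids in which epiblast-like cells had been grown with differentiated tc;Sf1ESCs. They come from another ESC line, and the library of that parent line was not analysed here, so the line and the cell state cannot be told apart in any comparison with todPGCLCs. The labels give no separate animals for the replicates, and p-values measure only the spread between cultures or libraries of the same cells.

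GATA factors bind DNA through paired zinc fingers. GATA1, GATA2 and GATA3 are best known from blood, and GATA2 and GATA3 also from the trophoblast. GATA4, GATA5 and GATA6 act in heart, gut and extraembryonic endoderm. GATA4 is required for the genital ridge, and GATA4 with its cofactor FOG2 for the start of testis formation. The FOG proteins, FOG1 from Zfpm1 and FOG2 from Zfpm2, do not bind GATA sites themselves but bind the GATA factors and bring corepressors such as the NuRD and CtBP complexes.

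Each library held between 25411033 and 30680191 fragments on genes. Levels are given in CPM, the counts scaled to this total, and 3 counts amounted to 0.0978 to 0.118 CPM, a limit that covers counting error only. The 7 pluripotency markers summed to between 4571 and 5121 CPM in the ESC libraries, 590 and 823 CPM in SCLCs and 2798 to 2889 CPM in todPGCLCs. In SCLCs the Sertoli cell markers Sox9 (7.77 and 4.47 CPM) and Inha (7.92 and 9.28 CPM) exceeded both tcESC libraries, whereas Amh, the Sertoli hormone that regresses the Müllerian duct, stood at 0.377 and 0.756 CPM, against 0.587 to 0.867 CPM in the ESCs. Fshr and Sry had 0 counts in both SCLC libraries, and Dhh had 5 counts and 1 count. All 20 genes of a list of extraembryonic endoderm genes, chosen with earlier results of these data known, were above 1 CPM in both SCLC libraries. Their sum was 46726 and 47649 CPM there, against 1160 to 1319 CPM in the ESCs and 770 to 805 CPM in todPGCLCs. Of the gonadal factors also taken as markers, Wt1 had 2.26 and 0.791 CPM in SCLCs against 0.590 and 0.619 CPM in tcESCs. Dmrt1 had 35.7 and 13.3 CPM against 13.1 and 14.7 CPM in tcESCs and 5.13 and 4.59 CPM in tc;Sf1ESCs. In todPGCLCs, Wt1 (12.1 and 11.0 CPM) and Dmrt1 (99.8 and 122 CPM) were above both SCLC libraries. Sox9 (2.47 and 4.97 CPM) overlapped SCLCs there, and Inha (1.27 and 1.32 CPM) was below them. The gonadal markers of the SCLCs were thus mixed, with Sox9, Inha and Wt1 above both tcESC libraries. Nr5a1 was above them too, but its reads cannot be told apart from those of the Sf1 transgene that SCLCs carry. Amh, Fshr, Sry and Dhh were within the range of the ESC libraries or below it, and Dmrt1 overlapped tcESCs. Lhx9 had 3 and 7 counts in SCLCs against 4 and 2 in tcESCs. SCLC is used here as the label of the group. Of the 8 germ cell markers, 5 were called higher and none lower in todPGCLCs than in tcESCs, where 18.1% and 11.2% of all genes were. All 8 libraries are of sorted or cultured bulk cells, in which fewer cells of a type and less RNA per cell cannot be told apart.

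By GENCODE M21 on GRCm38, the members lie on 7 chromosomes. Gata1 is on chromosome X from 7959260 to 7978071, Gata2 on chromosome 6 from 88193891 to 88207032, and Gata3 on chromosome 2 from 9857078 to 9890034. Gata4 is on chromosome 14 from 63198922 to 63271692 and Gata5 on chromosome 2 from 180325133 to 180334699. Zfpm1 is on chromosome 8 from 122282141 to 122337251 and Zfpm2 on chromosome 15 from 40655035 to 41104592. Exons of other genes overlap those of Gata3 by 232 bases, of Gata5 by 258 bases and of Gata6 by 93 bases, and reads there could be left out or misassigned. The other 5 members have no such overlap.

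The sequences before the starts of Gata2, Gata3 and Zfpm1 are shown because these 3 members differed between the 2 SCLC libraries, as described further on, while Gata4 and Gata6 did not to any like degree. RefSeq (GRCm38.p6) promoter entries were found for 5 of the 8 members, Gata1, Gata2, Gata3, Gata5 and Zfpm1. Each line gives the 250 bases that end just before an annotated start, 5′ to 3′ on the gene's strand, and capitals would mark a GATA motif. Gata2 has 2 starts, with windows at chr6:88193641-88193890 (plus strand) and chr6:88198414-88198663 (plus strand). The Gata3 window is chr2:9878601-9878850 (minus strand), and the Zfpm1 window is chr8:122281891-122282140 (plus strand).
Gata2, first start: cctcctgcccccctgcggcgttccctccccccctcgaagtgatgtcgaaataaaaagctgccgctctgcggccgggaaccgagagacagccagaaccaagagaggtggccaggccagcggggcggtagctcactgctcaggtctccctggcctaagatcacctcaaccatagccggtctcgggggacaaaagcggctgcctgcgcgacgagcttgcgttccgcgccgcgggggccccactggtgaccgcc
Gata2, second start: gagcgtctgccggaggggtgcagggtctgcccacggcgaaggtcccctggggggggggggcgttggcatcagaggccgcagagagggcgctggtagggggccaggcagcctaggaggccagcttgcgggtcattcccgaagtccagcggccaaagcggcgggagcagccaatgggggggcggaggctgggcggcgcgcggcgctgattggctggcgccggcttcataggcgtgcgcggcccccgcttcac
Gata3: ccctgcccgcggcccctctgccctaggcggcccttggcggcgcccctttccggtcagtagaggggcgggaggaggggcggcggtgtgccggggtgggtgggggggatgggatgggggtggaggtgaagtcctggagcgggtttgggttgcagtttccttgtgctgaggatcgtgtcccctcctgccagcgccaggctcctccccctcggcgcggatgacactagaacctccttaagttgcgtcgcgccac
Zfpm1: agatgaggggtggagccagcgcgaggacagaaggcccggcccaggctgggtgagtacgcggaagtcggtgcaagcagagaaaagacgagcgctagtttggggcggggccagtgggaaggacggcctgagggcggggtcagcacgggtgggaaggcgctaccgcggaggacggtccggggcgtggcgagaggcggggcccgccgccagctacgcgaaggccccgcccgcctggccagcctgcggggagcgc
The GATA motif was spelled AGATAA in one form, and in the others AGATAG with a final guanine, TGATAA with an initial thymine or TGATAG with both, and was searched on both strands. None of the 6 windows of these 5 members held it, whereas 26.5% of all 32851 promoter windows of 250 bases did. An NR5A motif, the kind of site that SF1 binds, was searched as CAAGGTCA and CAAGGCCA on both strands, and no word of one search is part of a word of the other. It was likewise found in none of the 6 windows, and in 3.28% of all promoter windows. The G and C content of the windows is 67.2% and 74% (Gata2), 70% (Gata3), 70% (Gata5), 73.2% (Zfpm1) and 54% (Gata1).

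Compared per length, as CPM per kilobase (kb) of exons, the make-up of the Gata family differed between the 4 groups. In tcESCs Gata2, a factor of blood stem cells and trophoblast, made up 77.9% and 77.3% of the summed level of the 6 Gata genes. In tc;Sf1ESCs Gata2 and Gata4 held similar shares, 42.3% and 38.3% for Gata2 and 40.3% and 43.2% for Gata4. Scaled by the longest transcript in place of all exons, Gata2 exceeded Gata4 there, at 2.68 and 2.29 CPM per kb against 1.94 and 1.96. In SCLCs Gata4 made up 76.3% and 72.8% and Gata6 20.0% and 19.1%, leaving 2.17% and 5.08% to Gata2. In todPGCLCs no member held over 33.2%, and Gata2, Gata4, Gata6, Gata3 and Gata1 each held at least 11.4%. The summed level was 4.83 and 5.96 CPM per kb in tcESCs, 4.19 and 3.95 in tc;Sf1ESCs, 139 and 152 in SCLCs, and 4.03 and 4.99 in todPGCLCs, so that SCLCs stood far above the other 3 groups, which lay close together. Of the 2 Zfpm genes, Zfpm1 held 87.6% to 92.6% of the summed level in ESCs, 99.8% in both SCLC libraries, and 98.4% and 97.9% in todPGCLCs.

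**Figure D1:**
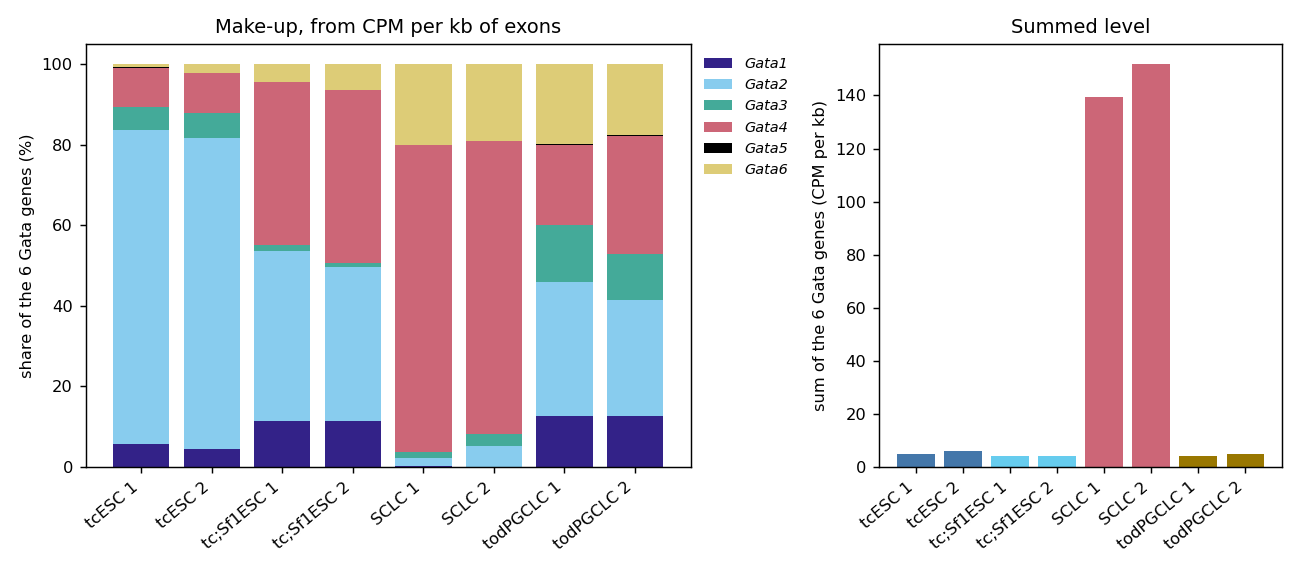
Share of each Gata gene in the summed level of the 6 (left, %) and the summed level itself (right, CPM per kb of exons, from 0), by library and from counts scaled by exon length. Gata2 takes the largest share in tcESCs, Gata4 in SCLCs, and the 2 SCLC bars stand at 139 and 152 against 3.95 to 5.96 elsewhere.

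Fold changes come from the quasi-likelihood test of edgeR, with p-values adjusted by Benjamini-Hochberg over all genes that entered it, and a gene was called with a fold change above 2 and an adjusted p under 0.05. Of the 8 members, 7 passed the filter on low counts (a mean above 10) and Gata5 did not. Between tc;Sf1ESCs and tcESCs, 4 of the 7 members were called, where 11.7% of all 16481 genes tested were: 2 higher, Gata4 and Gata6 (6.04% of all genes), and 2 lower, Gata2 and Gata3 (5.63%). Of these, Gata4 alone stayed called with an adjusted p under 0.01. Between SCLCs and tcESCs 5 were called (42.7% of all genes), with Gata3, Gata4, Gata6 and Zfpm1 higher (24.3%) and Zfpm2 lower (18.3%). Between SCLCs and tc;Sf1ESCs all 7 were called (42.2%), Gata2, Gata3, Gata4, Gata6 and Zfpm1 higher (24.1%) and Gata1 and Zfpm2 lower (18.1%). Between todPGCLCs and tcESCs 3 were called (29.4% of 16707 genes), Gata6 higher (18.1%) and Gata2 and Zfpm2 lower (11.2%). Between todPGCLCs and SCLCs all 7 were called (38.0%), Gata1 and Zfpm2 higher (18.5%) and the other 5 lower (19.5%). The comparisons share libraries (the 2 of tcESCs enter 3 of them and the 2 of SCLCs 3), so their results for a member are not independent.

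**Figure D2:**
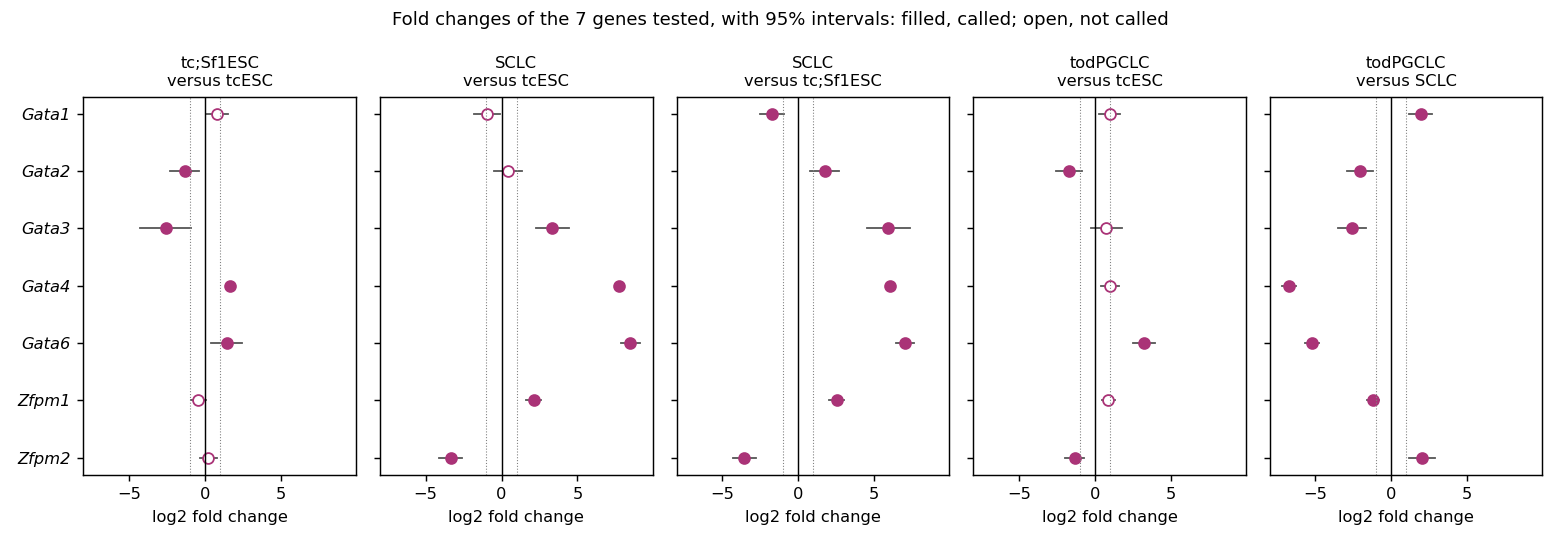
Log2 fold changes of the 7 members tested, 1 panel per comparison, with 95% intervals from the edgeR fit as lines. Filled points were called, open points were not, and dotted lines mark a 2-fold change. Gata4 and Gata6 lie farthest from 0 in the panels with SCLCs, and Zfpm1 and Zfpm2 lie on opposite sides of 0 there.

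Gata4 and Gata6, the pair shared by heart, gonad and extraembryonic endoderm, were low in both ESC lines and highest in SCLCs. Gata4 had 1.85 and 2.35 CPM in tcESCs, 6.60 and 6.65 CPM in tc;Sf1ESCs, 415 and 431 CPM in SCLCs, and 3.12 and 5.72 CPM in todPGCLCs. No library of SCLCs came near one of another group, and the 2 todPGCLC libraries lay between those of the 2 ESC lines. Gata4 rose in tc;Sf1ESCs over tcESCs (log2 fold change 1.66, SE 0.119, adjusted p = 0.00019), and it was the member whose call there held with each of the 4 libraries left out in turn. From tc;Sf1ESCs to SCLCs it rose by a log2 fold change of 6.05 (SE 0.0944, adjusted p = 5.81e-08), which is 66.2-fold. In todPGCLCs the log2 fold change over tcESCs was 0.98 (SE 0.264, adjusted p = 0.0104), just under the 2-fold limit, and without the first todPGCLC library it was 1.37 and without the second tcESC library 1.13, both past it. Without the second todPGCLC library it was 0.50, and 3 of 13 alternatives called it.

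Gata6, on chromosome 18 from 11052064 to 11085635, had 0.197 and 0.815 CPM in tcESCs, 1.23 and 1.63 CPM in tc;Sf1ESCs, 181 and 189 CPM in SCLCs, and 5.19 and 5.69 CPM in todPGCLCs. In these libraries the order was tcESC, tc;Sf1ESC, todPGCLC and SCLC, with no overlap between neighbouring groups. The log2 fold change of Gata6 was 8.49 (SE 0.276, adjusted p = 5.36e-07) between SCLCs and tcESCs and 7.06 (SE 0.244, adjusted p = 6.9e-07) between SCLCs and tc;Sf1ESCs. The first of these was 7.88 without the first and 9.89 without the second tcESC library. In todPGCLCs it was 9.64-fold higher than in tcESCs (log2 fold change 3.27, SE 0.322, adjusted p = 4.2e-05) and 37.3-fold lower than in SCLCs (log2 fold change -5.22, SE 0.199, adjusted p = 1.48e-07). Without the first tcESC library the log2 fold change of todPGCLCs over tcESCs was 2.62 and without the second 4.64, both called. The 2 tcESC libraries had 5 and 25 counts. The rise in tc;Sf1ESCs over tcESCs (log2 fold change 1.44, SE 0.434, adjusted p = 0.0422) was 0.83 without the first tcESC library and 2.85 without the second. It was called in 9 of 14 alternatives, and lost without the first tcESC library, without either tc;Sf1ESC library, and in both runs of DESeq2 (adjusted p from 0.0728 to 0.205 in these 5).

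Gata5, the third member of this subfamily, had 1 count and 0 counts in tcESCs, 0 in both tc;Sf1ESC libraries, 15 and 13 in SCLCs, and 1 in each todPGCLC library. Both SCLC libraries, at 0.566 and 0.447 CPM, were above the level of 3 counts and all others below it. Against tcESCs the pooled counts gave a ratio of 28.3 (95% counting interval 4.67 to 1155), against todPGCLCs one of 13.6 (3.44 to 118), and against tc;Sf1ESCs Gata5 was at least 4.52-fold higher, computed against 3 counts per library. Gata5 was not tested for want of counts.

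Per length, Gata6 stood at a constant ratio to Gata4 in the SCLC libraries, 0.262 in both. In the ESC libraries the ratio ran from 0.0638 to 0.208. In todPGCLCs it was 0.997 and 0.596, so Gata6 was nearer to Gata4 there than in any other library.

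Gata2 and Gata3 were lower in tc;Sf1ESCs than in tcESCs and varied most between the 2 SCLC libraries. Gata2 had 20.3 and 24.8 CPM in tcESCs, 9.57 and 8.17 CPM in tc;Sf1ESCs, 16.3 and 41.6 CPM in SCLCs, and 7.23 and 7.76 CPM in todPGCLCs. The tcESC libraries lay between the 2 SCLC libraries, and the tc;Sf1ESC and todPGCLC libraries were below all 4. Gata2 fell in tc;Sf1ESCs (log2 fold change -1.34, SE 0.402, adjusted p = 0.0416) and in todPGCLCs (-1.67 against tcESCs, SE 0.374, adjusted p = 0.00428), and the call in tc;Sf1ESCs was lost with each of the 4 libraries left out in turn (adjusted p from 0.134 to 0.214). The median log2 fold change of the genes on chromosome 6, where Gata2 lies, was -0.31 in the first of these comparisons and -0.29 in the second. With the chromosome median subtracted, Gata2 stood at -1.02 in the first and -1.37 in the second. The part of the chromosome in the values of Gata2 was not tested.

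Against tcESCs, Gata2 in SCLCs did not pass the test (log2 fold change 0.42, 95% interval -0.47 to 1.32, adjusted p = 0.341). Without the second SCLC library the value turned to -0.42. Against tc;Sf1ESCs it was higher in SCLCs (log2 fold change 1.76, SE 0.402, adjusted p = 0.00562), though 0.93 without the second SCLC library, which is under the 2-fold limit.

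Gata3, a factor of T cells, trophoblast and the nephric duct, had 1.10 and 1.43 CPM in tcESCs, 0.270 and 0.145 CPM in tc;Sf1ESCs, 7.24 and 17.4 CPM in SCLCs, and 2.29 and 2.26 CPM in todPGCLCs. The tc;Sf1ESC values rest on 7 and 4 counts. The groups did not overlap, in the order tc;Sf1ESC, tcESC, todPGCLC and SCLC, but the step from tcESC to todPGCLC did not pass the test (log2 fold change 0.76, adjusted p = 0.174). Gata3 fell in tc;Sf1ESCs (log2 fold change -2.60, SE 0.721, adjusted p = 0.0317), a call that was also lost with each of the 4 libraries left out (adjusted p from 0.087 to 0.156). It was 10.1-fold higher in SCLCs than in tcESCs (log2 fold change 3.33, SE 0.456, adjusted p = 0.000426), and called without either SCLC library, at 2.55 without the second.

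Between the 2 SCLC libraries, Gata2 was 2.55 times as high in the second as in the first (95% counting interval 2.28 to 2.85), Gata3 2.40 times (2.03 to 2.85) and Zfpm1 1.51 times (1.39 to 1.64). Gata4 and Gata6 differed by 1.04 times each, with intervals that ended at 1.07 and 1.08. Over all genes too, the 2 SCLC libraries differed more than those of any other group (chi-square divided by its degrees of freedom 27.6, against 1.41 to 8.94). The summed level of the 14 genes of a trophoblast list was 854 CPM in the first and 1092 CPM in the second library, and that of the 7 pluripotency markers 823 and 590 CPM. Their part in the difference of Gata2 and Gata3 was not tested.

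**Figure D3:**
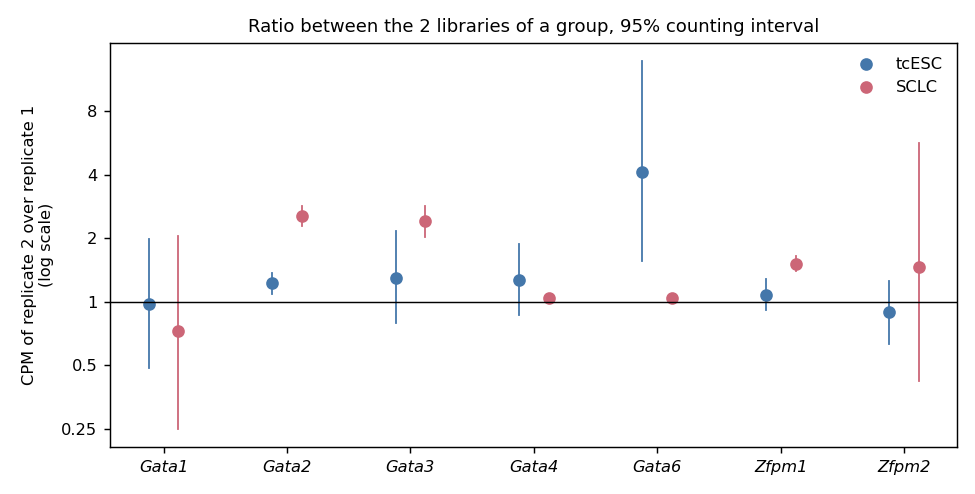
CPM of the second library over the first (log scale) for the 7 members tested, in tcESCs and in SCLCs, with 95% counting intervals as lines. Gata2, Gata3 and Zfpm1 lie above 1 in SCLCs, at 2.55, 2.40 and 1.51, whereas Gata4 and Gata6 lie at 1.04. In tcESCs Gata6 lies at 4.14, from 5 and 25 counts.

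Gata1, the erythroid and megakaryocyte factor, had between 8 and 41 counts in each library. It had 0.669 and 0.652 CPM in tcESCs (17 and 20 counts), 1.16 and 1.08 CPM in tc;Sf1ESCs, 0.377 and 0.275 CPM in SCLCs (10 and 8 counts), and 1.23 and 1.54 CPM in todPGCLCs. The order was SCLC, tcESC, tc;Sf1ESC and todPGCLC without overlap. Gata1 was lower in SCLCs than in tc;Sf1ESCs (log2 fold change -1.72, SE 0.341, adjusted p = 0.00281) and higher in todPGCLCs than in SCLCs (1.95, SE 0.333, adjusted p = 0.000737). The other differences stayed under the 2-fold limit, with log2 fold changes of 0.77 (tc;Sf1ESCs over tcESCs, adjusted p = 0.0964), -0.95 (SCLCs over tcESCs, adjusted p = 0.0466) and 0.99 (todPGCLCs over tcESCs, adjusted p = 0.0176). The last of these was past the limit without the first todPGCLC library, at 1.15. The SCLC value was past it and called with library totals only (-1.01) and with the median of the X chromosome subtracted (-1.13). Of the globin genes on the blood list, which GATA1 activates in red cells, none exceeded 2 counts in any library, though reads shared by near-identical globin copies are not counted.

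**Figure D4:**
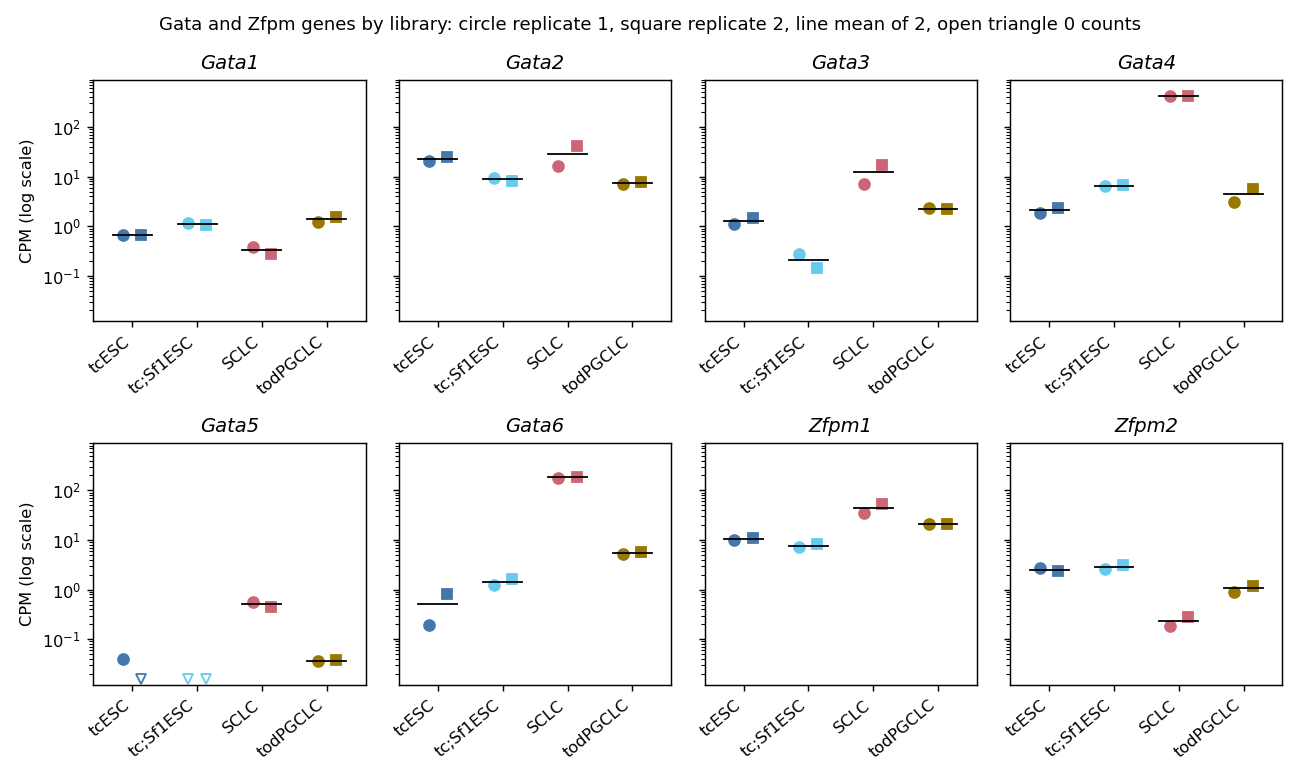
CPM (log scale) of each member by group. Circles are the first and squares the second library, lines the mean of the 2 where neither is 0, and open triangles 0 counts. Gata4, Gata5 and Gata6 are highest in SCLCs, Gata1 and Zfpm2 lowest there, and the 2 SCLC libraries stand apart in Gata2 and Gata3.

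In SCLCs the FOG genes moved in opposite directions. Zfpm1, for the GATA1 cofactor of blood, had 10.2 and 11.0 CPM in tcESCs, 7.21 and 8.17 CPM in tc;Sf1ESCs, 34.7 and 52.5 CPM in SCLCs, and 20.6 and 20.7 CPM in todPGCLCs. The order was tc;Sf1ESC, tcESC, todPGCLC and SCLC with no overlap, although the first step did not pass the test (log2 fold change -0.44, adjusted p = 0.155). Zfpm1 rose in SCLCs over tcESCs (log2 fold change 2.11, SE 0.202, adjusted p = 6.64e-05) and over tc;Sf1ESCs (2.55, SE 0.208, adjusted p = 2.97e-05). In todPGCLCs the log2 fold change over tcESCs was 0.89 (SE 0.188, adjusted p = 0.0031), under the 2-fold limit. Genes on chromosome 8, where Zfpm1 lies, had a median log2 fold change of 0.47 between tc;Sf1ESCs and tcESCs, 0.58 between SCLCs and tcESCs and -0.54 between todPGCLCs and SCLCs. With these medians subtracted, Zfpm1 stood at -0.92, 1.53 and -0.67. The last of these lies under the 2-fold limit, where the value as measured was -1.22 (SE 0.18, adjusted p = 0.000312), and without the second SCLC library it was -0.89.

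Zfpm2, for FOG2, the partner of GATA4 in heart and gonad, had 2.68 and 2.38 CPM in tcESCs, 2.62 and 3.14 CPM in tc;Sf1ESCs, 0.189 and 0.275 CPM in SCLCs, and 0.908 and 1.20 CPM in todPGCLCs. The 2 ESC lines overlapped, and the SCLC values rest on 5 and 8 counts. Zfpm2 was 11.7-fold lower in SCLCs than in tc;Sf1ESCs (log2 fold change -3.55, SE 0.321, adjusted p = 4.97e-05) and 2.51-fold lower in todPGCLCs than in tcESCs (log2 fold change -1.33, SE 0.272, adjusted p = 0.00262). Per length, Zfpm1 stood at 7.07 to 12.5 times Zfpm2 in the ESC libraries, at 501 and 520 times in SCLCs and at 61.6 and 46.7 times in todPGCLCs. At 108 CPM per kb for Gata4 (SD 2.89, n = 2) and 0.0243 for Zfpm2 (SD 0.0064, n = 2), the SCLCs had the highest level, among the 4 groups, of the factor and the lowest of this cofactor.

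Transcripts of a list of 15 genes for corepressors that FOG proteins bring were counted too. All 15 passed the count filter in every comparison, and their summed level ran from 3182 to 3666 CPM over the 8 libraries. Between SCLCs and tcESCs 3 were called higher and 3 lower, 6 of 15 where 42.7% of all genes were called, with a median log2 fold change of 0.11 where that of all genes was 0.05. Ctbp2, a CtBP corepressor, fell (log2 fold change -1.99, SE 0.107, adjusted p = 3.98e-06), and Chd3, a NuRD helicase, and Mbd2, a methyl-CpG binding subunit, rose (1.59 and 1.40, SE 0.0941 and 0.116, adjusted p = 6.32e-06 and 3.21e-05). Between tc;Sf1ESCs and tcESCs Chd3 was the 1 gene of 15 called, where 11.7% of all genes were, and was higher by a log2 fold change of 1.52 (SE 0.0941, adjusted p = 0.000115). Between SCLCs and tc;Sf1ESCs 2 were called higher and 3 lower, between todPGCLCs and tcESCs 3 higher and 1 lower, and between todPGCLCs and SCLCs 1 higher and 2 lower, where the shares of all genes called were 42.2%, 29.4% and 38.0%. Without the second todPGCLC library 1 was called higher than in tcESCs, in place of 3.

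Of the 6 other genes with a GATA-type zinc finger, Trps1, a repressor that binds GATA sites, changed most. It had 33.2 and 31.6 CPM in tcESCs, 43.6 and 47.3 CPM in tc;Sf1ESCs, 1.32 and 1.10 CPM in SCLCs, and 8.13 and 5.65 CPM in todPGCLCs. It was lower in SCLCs than in tc;Sf1ESCs by a log2 fold change of -5.18 (SE 0.132, adjusted p = 2.22e-07) and lower in todPGCLCs than in tcESCs by -2.30 (SE 0.162, adjusted p = 6.71e-06). Among these 6 genes no other was called between SCLCs and either ESC line, although without the first SCLC library 2 exceeded tcESCs and 1 exceeded tc;Sf1ESCs by the call, and Rere was called lower in todPGCLCs than in SCLCs (-1.13, SE 0.0909, adjusted p = 7.6e-06).

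Lists of partners and targets in several tissues were counted in the same way. The shares of all genes called were 24.3% higher and 18.3% lower between SCLCs and tcESCs and 6.04% and 5.63% between tc;Sf1ESCs and tcESCs. The lists were chosen with earlier results of these data known, so their counts describe these genes and are not independent support. The extraembryonic endoderm list, the genes with which Gata4 and Gata6 act in the yolk sac, had all 20 members called higher in SCLCs than in tcESCs, with a median log2 fold change of 7.06, and the same count against tc;Sf1ESCs, with a median of 8.02. The scavenger receptor gene Cubn stood at 1056 and 2107 CPM in SCLCs against a mean of 0.497 CPM in tcESCs, and the basement membrane gene Col4a1 at a mean of 18981 CPM against 70.9 CPM in todPGCLCs. Between tc;Sf1ESCs and tcESCs, where Gata4 was higher, 1 of the 20 was called higher, Hnf4a (log2 fold change 1.64, SE 0.221, adjusted p = 0.00193), and 3 lower, among them Sox7 and Dab2 (-2.87 and -2.35, SE 0.272 and 0.323, adjusted p = 0.000514 and 0.00203). Without the first tc;Sf1ESC library 2 were called higher. Between todPGCLCs and tcESCs 11 were called higher and 3 lower, with a median of 1.46, where 18.1% and 11.2% of all genes were called, and without either tcESC library 7 were called higher.

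Of the 19 gonadal genes, 12 passed the count filter over the first 6 libraries. Between SCLCs and tcESCs 7 were called higher and none lower, with a median log2 fold change of 2.46, and against tc;Sf1ESCs 9 higher and 1 lower. Without the second SCLC library 1 and 2 were called lower in these comparisons. Emx2, a homeobox gene of the early gonad, had 266 and 430 counts in SCLCs and 0 in all ESC libraries. Nr5a1, whose reads from the transgene and from the gene itself cannot be told apart, had 0.0394 and 0 CPM in tcESCs, 2.01 and 1.08 CPM in tc;Sf1ESCs, 12.9 and 18.4 CPM in SCLCs, and 0.218 and 0.188 CPM in todPGCLCs. Between tc;Sf1ESCs and tcESCs 2 of the 12 were called higher, one of them Nr5a1, and 2 lower, Inhbb and Dmrt1 (-3.88 and -1.50, SE 0.413 and 0.432, adjusted p = 0.000736 and 0.036). With any 1 of these 4 libraries left out, 1 was called lower.

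Of the trophoblast list, 10 genes were tested, and between tc;Sf1ESCs and tcESCs 5 were called lower and 1 higher, with a median log2 fold change of -1.75, and Krt18 and Krt7, keratins of simple epithelia, had -4.99 and -4.02 (SE 0.258 and 0.556, adjusted p = 6.04e-05 and 0.00208), whereas Tfap2a had 2.33 (SE 0.23, adjusted p = 0.000572). In SCLCs 5 of the 10 were called higher and 1 lower than in tcESCs, or 2 lower without the second SCLC library. Of the blood list, 10 of 20 genes were tested, with 5 called higher and 2 lower in SCLCs than in tcESCs, where 3 were called higher without the first tcESC library, 2 without the second and 3 without the second SCLC library, and by DESeq2 3. In that list Runx1 rose most by the rule used (log2 fold change 4.45, SE 0.151, adjusted p = 6.22e-07), whereas Nfe2 and Spi1 fell (-3.16 and -2.58, SE 0.317 and 0.319, adjusted p = 8.55e-05 and 0.000249). Of 14 cardiac genes 8 were tested, and 6 were called higher and 1 lower in SCLCs than in tcESCs, with Hand1 at 3.58 CPM against 0.105 CPM. Among those called, Tnnt2 had 15 and 30 counts in SCLCs against 7 and 13 in tcESCs. Nkx2-5, Tbx5, Mef2c, Myocd, Nppa and Actc1 did not pass the count filter. Of the 6 genes of nephric duct and kidney tested, 4 were called higher and none lower there, with Wnt11 at 97.7 CPM against 1.50 CPM. Of the 6 endothelial genes tested, 2 were called higher, with Cdh5 at 29.6 and 70.2 CPM against a mean of 0.0557 CPM, and 3 lower. The part of any of these tissues' cells in the levels of the Gata and Zfpm genes was not tested.

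**Figure D5:**
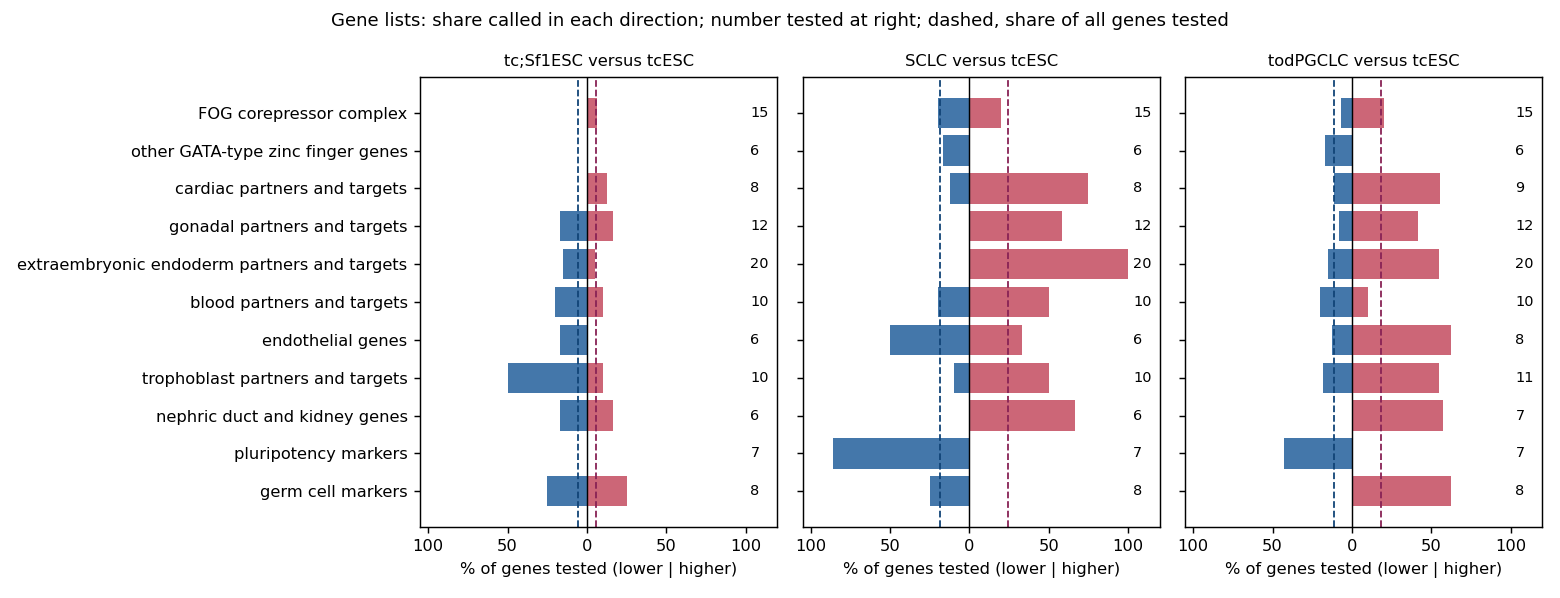
Share of the tested genes of each list called higher (right) or lower (left) in 3 comparisons with tcESCs, in % of genes tested, with the number tested beside each bar and the shares over all genes as dashed lines. In SCLCs the extraembryonic endoderm list reaches 100% higher, against 24.3% of all genes. The lists were chosen with earlier results of these data known.

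Over the 8 libraries, Gata4 and Gata6 had a Pearson correlation of log2 CPM of 0.941 and Gata3 and Zfpm1 one of 0.956, though Gata6 also had 0.907 with Zfpm1 and 0.795 with Gata3, and Zfpm2 stood opposite to Gata6 and Zfpm1 (-0.958 and -0.950). Gata1 stood opposite to Gata2 (-0.890). These values describe 8 libraries in 4 pairs, so that in effect 4 groups set them. By the same measure the genes most like Gata4 among 14292 genes were Akr1c12, Slc30a7 and Lysmd3 (0.998, 0.998 and 0.997), those most like Gata6 were Pafah1b3, Epdr1 and Plpp6 (0.996, 0.996 and 0.994), and those most like Gata2 were Rnpep, Lgals3 and Tulp2 (0.978, 0.977 and 0.977). For Gata3 they were Abca3, Batf3 and Cldn7 (0.995, 0.994 and 0.992), and for Gata1 Elp2, Tmem47 and Ttc3 (0.994, 0.991 and 0.989). For Zfpm1 they were Larp4b, Trio and Acadl (0.998, 0.996 and 0.996), and for Zfpm2 Chordc1, Rbm45 and Tubb4b (0.995 each). Between 6 (Gata2) and 778 (Zfpm2) genes had a correlation above 0.95 with a member, so those named are a few among many.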

How the data were processed

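RNA was extracted by the authors with a PicoPure kit, and strand-specific libraries of poly-A RNA were sequenced with paired reads of 50 bp. Per the labels and methods, reads were trimmed with Trim Galore and aligned to GRCm38 with STAR 2.4.0, and the submitters' processing notes also list Picard, HTSeq and DESeq2. The counting mode, its strand setting and the annotation release are not given in the sources used here. The authors deposited raw counts per Ensembl gene ID for each library, not normalized. Lines of the files that name no gene (35.6% to 41.6% of all fragments, most of them not uniquely aligned) were left out, and no values were rescaled by the authors.

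Of 46078 IDs, 45229 were named with GENCODE M21. The tests used edgeR 4.0.16 (TMM, glmQLFit, glmQLFTest) in R 4.3.3. One fit of 6 libraries, without todPGCLCs, gave the 3 comparisons among the other groups, and one of all 8 the 2 with todPGCLCs, over genes with a mean count above 10. CPM are counts over the library total, and levels per kb use the union of exons. The alternatives were DESeq2 1.42.0, other normalizations, filters, fits and thresholds, a block for the replicate number, and leaving out each library in turn. The calls were tested on simulated data with 200 changed genes. The genes named are all members, up to 3 called genes of each list and comparison by size of change, and cell type markers. The gene family and the lists were chosen for study with earlier results of these data known, and within the family every member was taken.

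The labels number the replicates in each group. Deviations of same-numbered libraries from their group means correlated by -0.0152 to 0.0863 across genes, so the numbers were not taken to pair the libraries.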

Additional observations from a re-analysis of the deposited data

How the results depend on the processing

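With the replicate block the members called stayed at 4, 5, 7, 3 and 7 in the 5 comparisons (in the order tc;Sf1ESCs against tcESCs, SCLCs against each ESC line, todPGCLCs against tcESCs and against SCLCs), and it changed no call of a member. The numbers of the replicates were not taken to pair the libraries. Between tc;Sf1ESCs and tcESCs, 1 member was called in a test against a 2-fold change, 1 with an adjusted p under 0.01 (Gata4 in both), and 2 by DESeq2 run without a filter beyond 1 count a gene, an alternative chosen after seeing the data. Between todPGCLCs and tcESCs, 1 member was called in the test against a 2-fold change, and 5 with library totals only, of which Gata1, Gata4 and Gata6 were higher, 3 of 5 against 1 of 3 as reported. With 1 library left out, the members called ranged from 1 to 2 between tc;Sf1ESCs and tcESCs, 5 to 5 and 6 to 7 between SCLCs and tcESCs or tc;Sf1ESCs, and 3 to 5 and 6 to 7 between todPGCLCs and tcESCs or SCLCs. A lone library left in a group is then assumed to vary like the others. Of all log2 fold changes of members, 1 turned its sign, that of Gata2 between SCLCs and tcESCs without the second SCLC library (leaving out either gave -0.42 to 0.95). With every gene of at least 1 count, or the filterByExpr filter, Gata5 was tested too and called in the 3 comparisons with SCLCs. Counts over the lists moved too, in several cases by over 1.5 times. With library totals only, the median log2 fold change of all genes between todPGCLCs and SCLCs moved by 0.134, and otherwise by less than 0.1. With 2 libraries a group and under 50 counts for Gata1 and Gata5 in each, small changes of these genes could not be seen.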

Other observations

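Genes of other tissues were also measured in todPGCLCs, where Gata6 was higher than in tcESCs. Of all genes, 18.1% were called higher and 11.2% lower in that comparison. Of the 8 endothelial genes tested, 5 were called higher and 1 lower than in tcESCs, with Tie1 at a mean of 4.90 CPM against 0.0719 CPM and Nos3 at 2.38 CPM against 0.144 CPM, and 3 were called higher without either tcESC library or without the first todPGCLC library. Of the 9 cardiac genes tested, 5 were called higher and 1 lower, with the atrial and embryonic myosin gene Myh6 at 3.09 and 6.10 CPM against a mean of 0.484 CPM, and 3 were called higher without the first todPGCLC library. Of the 7 genes of nephric duct and kidney tested, 4 were called higher and none lower, with Lhx1 at 4.90 and 16.8 CPM against a mean of 0.036 CPM. Of the 10 blood genes tested, 1 was called higher and 2 lower, which is near the shares of all genes, and 3 were called higher without the first todPGCLC library.

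With the longest transcript in place of the union of exons, the ratio of Gata6 to Gata4 in SCLCs was 0.392 and 0.393, that in todPGCLCs 1.49 and 0.893, so that Gata6 exceeded Gata4 in the first of these libraries, and that of Zfpm1 to Zfpm2 in SCLCs was 314 and 326. By rank correlation, at most 1 of the 3 genes named as most like each member was among its first 3.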
